A study of Homo sapiens with 9 samples.

Results

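The genes described here are 10 regulators of mitochondrial apoptosis of the BCL2 family, chosen by name: BCL2, BCL2L1, MCL1, BAX, BAK1, BID, BAD, BCL2L11, PMAIP1 and BBC3. Of these, 9 were measured on a probe set that names 1 gene, among 14207 genes measured in that way. MCL1 lay only on a probe set that also names ADAMTSL4 and its antisense gene, and is described apart. ARPE-19 cells, a long-established line from human retinal pigment epithelium, were grown to confluence in medium with 10% fetal bovine serum and then kept in medium with 1% bovine serum albumin. The 9 arrays, 3 per group, came from cells given vehicle, 100 µg/ml cigarette smoke condensate or 250 µg/ml cigarette smoke condensate. It came from a stock in DMSO, at 40 mg/ml and with 6% nicotine. Exposure time was not given in the sources used here. Values are log2 probe set summaries, in which a difference of 1 is a 2-fold change. The labels do not state whether the arrays of a group had cultures of their own. A p-value here therefore reflects the spread among the arrays at hand, which may be technical.

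BCL2 family proteins decide whether the outer mitochondrial membrane is breached and cytochrome c is released to activate caspases. Survival members (BCL2, BCL-XL from BCL2L1, and MCL1) hold back the effectors BAX and BAK1, which form the pores. The BH3-only members (BID, BAD, BIM from BCL2L11, NOXA from PMAIP1 and PUMA from BBC3) carry stress signals to both classes. Much of this control acts on protein, as with cleavage of BID by CASP8 or phosphorylation of BAD, and is not seen by a transcript array. Loss of pigment epithelial cells is a feature of age-related macular degeneration, for which smoking is a known risk factor.

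The arrays of a group correlated at 0.970 to 0.992, and no pair of arrays was identical. On the first principal component, with 38.3% of the variance over all genes, both dosed arrays numbered 3 lay at 5.78 and 4.28, apart from the other dosed arrays (-24.5 to -21.0) and from the vehicle arrays (15.4 to 45.4). Results are therefore also given without single arrays where that changes them. All 13 markers of the pigment epithelium were measured. KRT8 (10.29 to 11.49) and OTX2 (8.38 to 9.28) had high values on every array, whereas the visual cycle gene RPE65 (2.33 to 2.69) and the channel gene BEST1 (2.56 to 2.85) lay below the lower quartile of all genes, which was 2.93 to 3.14. The mean of the 13 markers was 5.08 to 5.35 on arrays of 100 µg/ml, 5.07 to 5.36 on those of 250 µg/ml, and 5.34 to 5.74 on vehicle arrays, with 0 of 13 past the limma threshold at either dose. Its part in the results below was not tested. Of the markers of other cell types, none of the 10 measured for photoreceptors, glia and endothelium had a mean above that of the median gene. Of 4 measured for leukocytes or macrophages, CD68 did, at percentile 96.2 of all genes, and the list averaged 4.48 to 4.77 on arrays of 100 µg/ml, 4.58 to 4.62 on those of 250 µg/ml, and 4.57 to 4.91 on vehicle arrays. Of 3 measured for fibroblasts, PDGFRB did, at percentile 81.1, with log2 differences of -1.005 ± 0.67 and -0.987 ± 0.67 from vehicle (limma adjusted p = 0.510 and 0.487). The fibroblast list averaged 3.76 to 4.43, 3.80 to 4.43 and, on vehicle arrays, 4.14 to 4.73. The part of these markers in the results was not tested either.

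Promoter sequences were matched for 9 of the 10 genes, all but MCL1, in the RefSeq table of build GRCh38.p14, which runs from 250 bases before to 50 bases after each annotated start. The 2 shown are those of BAX, the member farthest below vehicle at 100 µg/ml, and of PMAIP1, the only member whose mean lay above vehicle at both doses. The BAX window is chr19:48954625-48954924 and the PMAIP1 window chr18:59899746-59900045, both on the plus strand. Capitals mark the E-box CACGTG and the aryl hydrocarbon receptor core GCGTG, on either strand.
BAX: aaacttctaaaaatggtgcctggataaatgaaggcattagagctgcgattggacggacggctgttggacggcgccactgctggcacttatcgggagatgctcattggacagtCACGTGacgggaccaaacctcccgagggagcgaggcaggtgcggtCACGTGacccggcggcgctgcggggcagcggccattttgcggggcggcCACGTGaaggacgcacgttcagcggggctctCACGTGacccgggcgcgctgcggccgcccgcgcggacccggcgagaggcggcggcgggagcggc
PMAIP1: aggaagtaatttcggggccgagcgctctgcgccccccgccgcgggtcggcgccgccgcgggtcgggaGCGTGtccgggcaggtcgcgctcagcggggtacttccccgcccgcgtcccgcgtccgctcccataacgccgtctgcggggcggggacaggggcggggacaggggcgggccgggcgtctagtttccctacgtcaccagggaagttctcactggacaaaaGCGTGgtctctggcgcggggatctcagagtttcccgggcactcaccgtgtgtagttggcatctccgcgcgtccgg
The BAX window held CACGTG 4 times and no GCGTG, and the PMAIP1 window held GCGTG 2 times and no CACGTG. Read on both strands, CACGTG was in 2 of the 9 members' windows (BAX and BBC3) and in 7.44% of 27303 promoters of the same length. GCGTG was in 4 of 9 (BID, BAD, BCL2L11 and PMAIP1) and in 36.3% of all. The antioxidant response element core TGACNNNGC was in 3 of 9 (BCL2L1, BAX and BAD) and in 13.6% of all. The members' windows had a median GC content of 68.3% (48.0 to 74.7%), and all promoters one of 58.3%. These are matches of letters, not measured binding sites.

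No BCL2 family gene changed past the threshold at either dose. At 100 µg/ml 0 of 9 members passed limma at an adjusted p of 0.05 over all genes and 0 at an unadjusted p under 0.05, where 0.0633% and 14.6% of all 14207 genes did. At 250 µg/ml 0 of 9 passed either limit as well, where 0.549% and 16.6% of all genes did. The 3 dosed arrays overlapped the 3 vehicle arrays in each of the 9 members at both doses, whereas groups did not overlap in 18.3% of all genes at 100 µg/ml (11.9% wholly below vehicle and 6.41% wholly above) and in 22.9% at 250 µg/ml (14.3% and 8.61%). The group mean lay below vehicle for 8 of 9 members at each dose, as it did for 59.2% and 57.3% of all genes. The members' median log2 difference was -0.23 for the lower dose and -0.15 for the higher dose, and that of all genes -0.05 and -0.04. The members' median at 100 µg/ml was -0.45 without the dosed replicate 3 and -0.38 without vehicle replicate 1. Leaving out the same arrays of the 250 µg/ml comparison gave -0.33 and -0.35. In bulk RNA, fewer cells of a kind and less RNA per cell cannot be told apart.

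**Figure D1:**
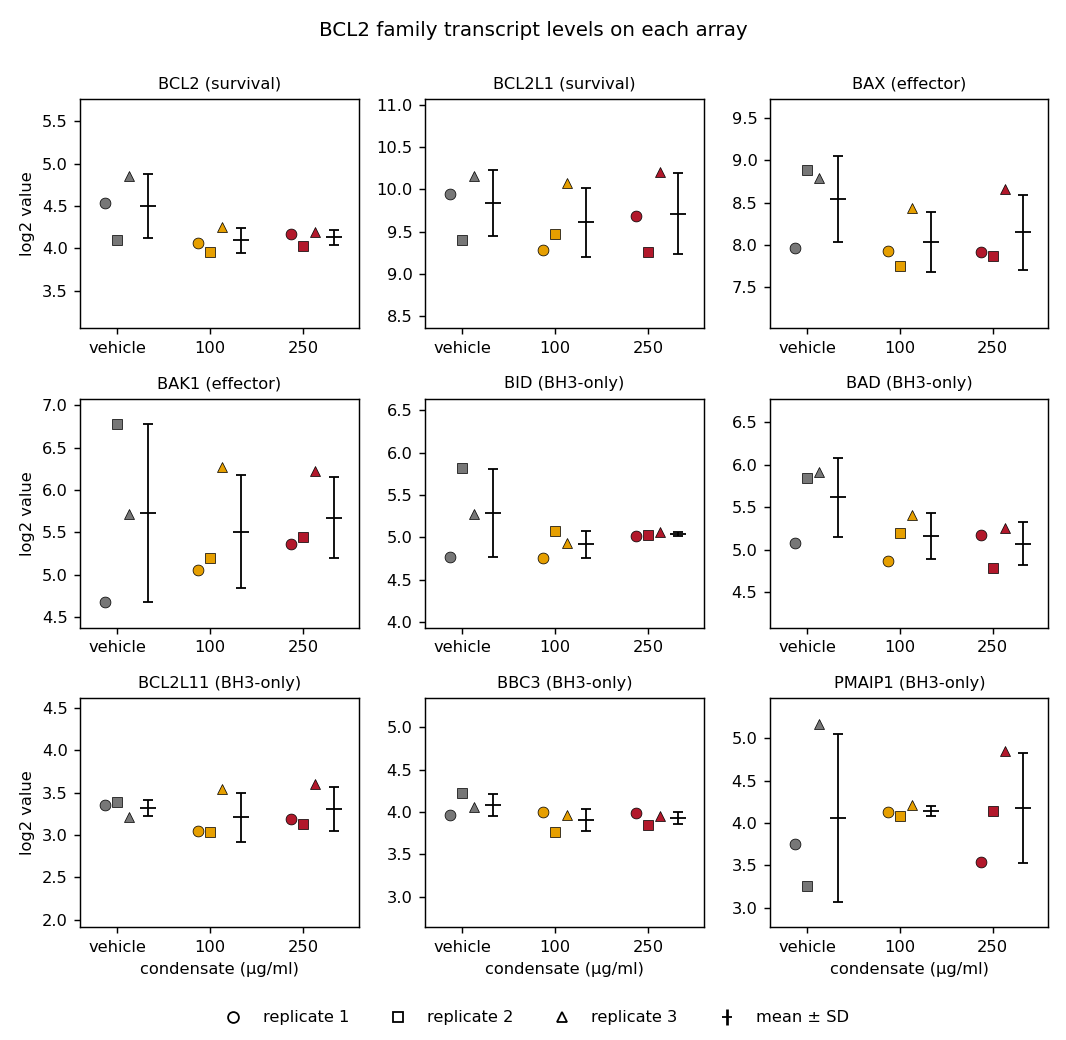
Log2 value (vertical axis, equal height of scale in every panel) of the 9 BCL2 family genes measured alone, by condensate dose (horizontal axis). Symbols are arrays, shaped by replicate number, and bars are the mean ± SD of 3 arrays. The dosed arrays overlap the vehicle arrays in every panel, and BAK1 and PMAIP1 spread most within groups.

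Neither survival gene measured alone differed past the threshold. BCL2, the founding member, had log2 values of 4.07, 3.96 and 4.25 at 100 µg/ml, against 4.54, 4.10 and 4.86 in vehicle arrays. With 250 µg/ml it had 4.17, 4.03 and 4.20, against the same vehicle values. The vehicle array numbered 2 lay among the dosed arrays, and the other vehicle arrays lay above all 6 of them. The log2 difference was -0.41 ± 0.18 (SE, n = 3 per group, limma adjusted p = 0.359) at 100 µg/ml and -0.37 ± 0.18 (adjusted p = 0.356) at 250 µg/ml. The 95% intervals ran from -0.83 to 0.02 and from -0.79 to 0.05, so that a 2-fold change in either direction lay outside both.

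BCL2L1 encodes BCL-XL and, by splicing, the shorter pro-apoptotic BCL-XS, which a transcript-level probe set does not separate. It had values of 9.29, 9.48 and 10.07 at 100 µg/ml, against 9.95, 9.41 and 10.16 in vehicle arrays. The values at 250 µg/ml were 9.68, 9.26 and 10.21. The array numbered 3 was the highest in all 3 groups, and the groups overlapped widely. The log2 differences were -0.23 ± 0.30 (limma adjusted p = 0.762) and -0.12 ± 0.30 (adjusted p = 0.863), with 95% intervals of -0.92 to 0.47 and -0.81 to 0.57.

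The pore-forming effectors showed the same lack of a called change, with wider errors. BAX had values of 7.93, 7.75 and 8.43 at 100 µg/ml, against 7.96, 8.89 and 8.79 in vehicle arrays. BAX had 7.92, 7.87 and 8.66 at 250 µg/ml. Vehicle replicate 1 lay with the low dosed arrays, and the dosed arrays numbered 3 lay between them and the other vehicle arrays. The log2 differences were -0.51 ± 0.31 (limma adjusted p = 0.478, 95% interval -1.22 to 0.20) and -0.40 ± 0.31 (adjusted p = 0.552, -1.11 to 0.32).

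BAK1, the effector that sits in the outer mitochondrial membrane of healthy cells, was the most variable member. It had values of 5.05, 5.19 and 6.27 at 100 µg/ml, against 4.68, 6.78 and 5.72 in vehicle arrays, and 5.36, 5.44 and 6.22 at 250 µg/ml. The vehicle arrays alone spanned 2.10 log2 units and held both the lowest and the highest of the 9 values. Its SD within groups, 0.77, was at percentile 98.8 of all genes. The differences of -0.22 ± 0.54 and -0.05 ± 0.54 (limma adjusted p = 0.884 and 0.973) had 95% intervals of -1.44 to 1.01 and -1.27 to 1.17, which both include a 2-fold change in either direction.

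Among the BH3-only genes, BAD and BID had means below vehicle, and each had 1 vehicle array among the dosed ones. BAD, which binds and occupies survival members, had values of 4.86, 5.20 and 5.41 at 100 µg/ml, against 5.08, 5.85 and 5.92 in vehicle arrays. Its values at 250 µg/ml were 5.17, 4.78 and 5.26. Vehicle replicate 1 was again the low one. BAD had the lowest unadjusted p of the members at 250 µg/ml, 0.0575, with a log2 difference of -0.55 ± 0.25 (limma adjusted p = 0.316, 95% interval -1.12 to 0.02), and -0.46 ± 0.25 at 100 µg/ml (adjusted p = 0.430).

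BID, which links death receptors to mitochondria, had values of 4.75, 5.07 and 4.93 at 100 µg/ml, against 4.77, 5.82 and 5.27 in vehicle arrays. The 3 arrays of 250 µg/ml lay close together at 5.01, 5.03 and 5.07. The vehicle SD was 0.52, and the dosed SD 0.16 at 100 µg/ml and 0.03 at 250 µg/ml. The log2 differences were -0.37 ± 0.23 (limma adjusted p = 0.484) and -0.25 ± 0.23 (adjusted p = 0.614). They rested on single vehicle arrays, at -0.63 and -0.51 without vehicle replicate 1 and at -0.11 and 0.015 without vehicle replicate 2.

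PMAIP1, which encodes NOXA, an antagonist chiefly of MCL1, had values of 4.13, 4.09 and 4.21 at 100 µg/ml, against 3.75, 3.26 and 5.17 in vehicle arrays. PMAIP1 had 3.54, 4.14 and 4.85 at 250 µg/ml. The arrays at 100 µg/ml lay between the vehicle arrays, and vehicle replicate 3 was the highest of all 9. The log2 differences of 0.08 ± 0.48 and 0.12 ± 0.48 (limma adjusted p = 0.958 and 0.917) had 95% intervals of -1.01 to 1.18 and -0.98 to 1.21. Both were negative without vehicle replicate 2 (-0.32 and -0.28), and they were 0.64 and 0.67 without vehicle replicate 3, with no call.

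BBC3, which encodes the p53-induced PUMA, was the least variable member, with an SD within groups of 0.11. It had values of 4.00, 3.76 and 3.96 at 100 µg/ml, against 3.97, 4.22 and 4.06 in vehicle arrays, and 3.99, 3.84 and 3.96 at 250 µg/ml. All 9 arrays lay within 0.46 log2 units, at a mean level below that of the median gene (percentile 41.9 of all genes). The log2 differences of -0.17 ± 0.11 and -0.15 ± 0.11 (limma adjusted p = 0.492 and 0.510) had the narrowest 95% intervals of the members, -0.43 to 0.08 and -0.41 to 0.10.

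BCL2L11, which encodes BIM, an activator of BAX and BAK1, had values of 3.05, 3.03 and 3.54 at 100 µg/ml, against 3.35, 3.39 and 3.21 in vehicle arrays. BCL2L11 had 3.19, 3.13 and 3.60 at 250 µg/ml. Both dosed arrays numbered 3 lay above every vehicle array and the other dosed arrays below every one. The log2 differences were -0.11 ± 0.18 (limma adjusted p = 0.809) and -0.01 ± 0.18 (adjusted p = 0.981). Its values lay near the lower quartile of all genes.

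**Figure D2:**
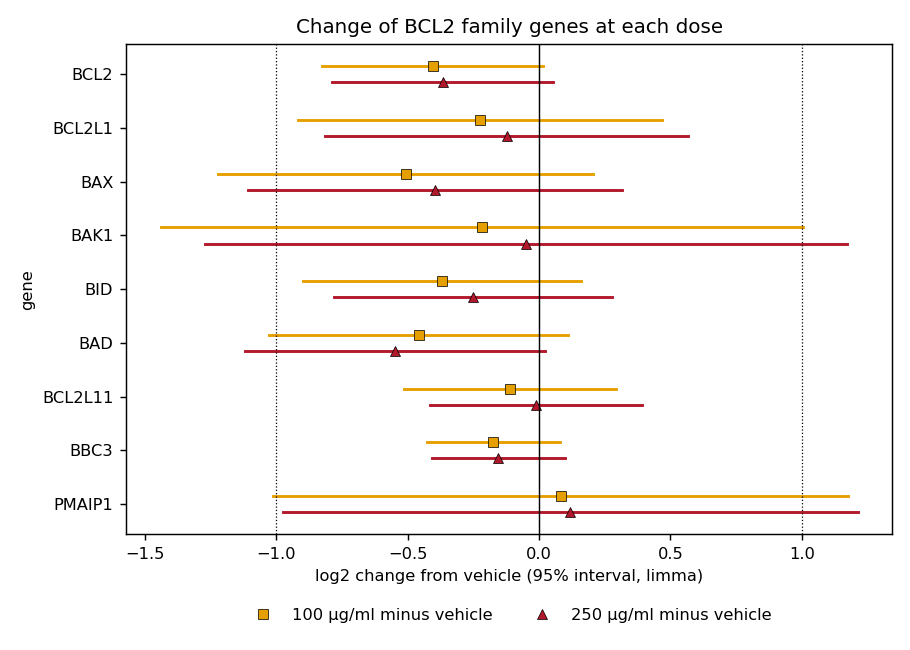
Log2 change from vehicle (horizontal axis) of each BCL2 family gene (vertical axis) at 100 µg/ml and 250 µg/ml, with the 95% interval of the limma fit. Dotted lines mark a 2-fold change. All 18 intervals include 0, and those of BCL2, BCL2L1, BID, BCL2L11 and BBC3 stay inside 2-fold at both doses.

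At both doses the 95% intervals of 5 members, BCL2, BCL2L1, BID, BCL2L11 and BBC3, excluded a 2-fold change in either direction. Those of BAX and BAD reached past a 2-fold lower level at both doses, and those of BAK1 and PMAIP1 past 2-fold on at least 1 side. Intervals were not adjusted for the number of members. BCL2, BCL2L11, PMAIP1 and BBC3 had means below that of the median gene, at percentiles 45.1, 30.4, 43.9 and 41.9 of all genes.

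MCL1, the short-lived survival protein, could be followed only on its shared probe set, fitted among all 17629 probe sets. That probe set had values of 9.11, 9.10 and 9.06 at 100 µg/ml, against 8.50, 9.74 and 8.93 in vehicle arrays, and 8.98, 8.84 and 8.78 at 250 µg/ml. The dosed arrays all lay between the lowest and the highest vehicle array. The log2 differences from vehicle were 0.03 ± 0.27 and -0.19 ± 0.27 (limma adjusted p = 0.969 and 0.751). Every array at 250 µg/ml lay below every array at 100 µg/ml, by 0.22 ± 0.27 in the mean (adjusted p = 1.00), and the signal cannot be assigned to MCL1. BAD also had a shared probe set, with GPR137, whose means lay above vehicle by 0.36 ± 0.38 and 0.47 ± 0.38 (adjusted p = 0.685 and 0.568), opposite in sign to the probe set of BAD alone.

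The comparison of 250 with 100 µg/ml asked whether the larger dose moved the family further. In this comparison 0 of 9 members passed limma, adjusted or unadjusted, where 0% and 1.84% of all genes did (0.859% lower and 0.985% higher at 250 µg/ml). Groups did not overlap in 0 of 9 members and in 6.17% of all genes (2.86% lower and 3.32% higher). The mean at 250 µg/ml was the lower one for 1 of 9 members, BAD, and for 45.6% of all genes. The log2 differences ran from -0.09 for BAD to 0.17 for BAK1, with a median of 0.10 over the members and 0.01 over all genes. In 7 of 9 members the means were ordered vehicle, then 250 µg/ml, then 100 µg/ml, from high to low. BAD was ordered vehicle, 100 µg/ml, 250 µg/ml, and PMAIP1 the other way, with 250 µg/ml highest and vehicle lowest. No neighbours in these orders differed by the test. Without replicate 3 of 250 µg/ml its mean was the lower one for 6 of 9 members, with a median of -0.11, so the order of the doses changed with 1 array. The limma fit took no account of array numbers. Between arrays of the same number, BCL2L11 alone differed in 1 direction in all 3 pairs (0.14, 0.09 and 0.06 higher at 250 µg/ml). PMAIP1 varied most (-0.59, 0.06 and 0.64).

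The difference between BAX and BCL2 within an array is a ratio often read in this field. Only its change between groups has a meaning, since the probe sets differ in brightness. It averaged 3.94 ± 0.20 log2 units at 100 µg/ml (SD, n = 3) and 4.05 ± 0.69 in vehicle arrays (n = 3), a change of -0.10. For 250 µg/ml it averaged 4.02 ± 0.39, a change of -0.03. The sign of both changes rested on single vehicle arrays. Without vehicle replicate 1 they were -0.42 and -0.34, and without vehicle replicate 2 they were 0.27 and 0.34.

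**Figure D3:**
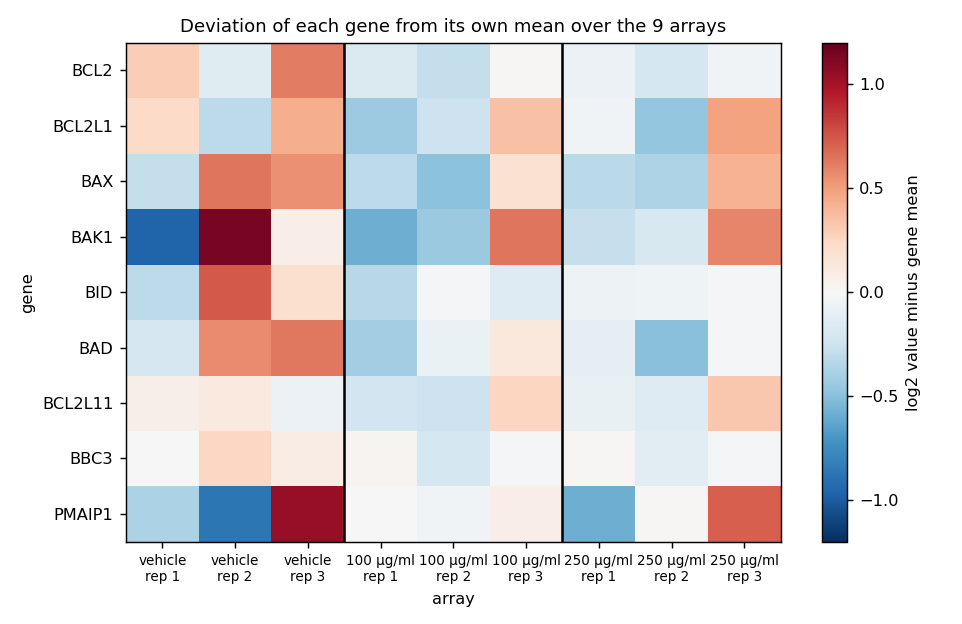
Log2 value minus the gene's own mean over the 9 arrays (colour) for each BCL2 family gene (rows) and array (columns, vertical lines between groups). BAX, BAK1, BID and BAD are low on vehicle replicate 1 and high on vehicle replicate 2, and most members are highest on the array numbered 3 within each dosed group.

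The members also varied among arrays of a group. In 7 of 9 members the vehicle group had the widest range of the 3 groups. Over all genes too the vehicle group varied most, with a median SD of 0.21, against 0.18 at 100 µg/ml and 0.16 at 250 µg/ml. Vehicle replicate 1 was the lowest vehicle array in 5 members (BAX, BAK1, BID, BAD and BBC3), and vehicle replicate 2 the lowest in 3 (BCL2, BCL2L1 and PMAIP1). Within the dosed groups the array numbered 3 was the highest for 7 of 9 members at 100 µg/ml and for 8 of 9 at 250 µg/ml. These are the dosed arrays that stood apart on the first principal component over all genes. The share of all genes highest on them was not counted.

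The absence of a called change held with every single array left out, but the overlap of groups did not. Without vehicle replicate 1, BAX, BID, BAD and BBC3 lay below vehicle on every array at both doses, which is 4 of 9 where groups did not overlap in 30.5% and 35.6% of all genes. Without it BAX, BID and BAD, all lower, had unadjusted p under 0.05 at both doses, as did 2215 of 14207 genes at 100 µg/ml (1365 lower) and 2436 at 250 µg/ml (1360 lower), with 0 of 9 members past the adjusted threshold in limma. Without vehicle replicate 2, BCL2 lay below vehicle on every array at both doses, where groups did not overlap in 24.7% and 30.9% of all genes. Without vehicle replicate 3, PMAIP1 lay above vehicle on every array at 100 µg/ml (32.3% of all genes) and 0 of 9 stood apart at 250 µg/ml (38.0%). Without both dosed arrays numbered 3, BCL2, BAX and BCL2L11 lay below vehicle at 100 µg/ml (33.2% of all genes), and BAX and BCL2L11 at 250 µg/ml (39.0%). The counts of overlap were chosen after seeing the data.

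Likeness of pattern was measured as the root mean square difference between centred log2 values over the 9 arrays. Closest to BCL2 were TMT1A (0.08) and HFM1 (0.10), and to BCL2L1 TEAD3 (0.11) and TRPM3 (0.14). Closest to BAX were RTN2 (0.09) and FOXO4 (0.10), and to BAK1 SLC35H1 and ANKRD16 (0.19 each). BID was closest to MAD2L1BP (0.08) and IDNK (0.09), and BAD to TRPT1 (0.10) and SSBP4 (0.11). The closest to BCL2L11 were SLC8B1 (0.05) and RALGPS1 (0.06), and to BBC3 PLAC1 and CDH15 (0.04 each). PMAIP1 had no near match, with HAUS4 at 0.28 and CCL2 at 0.29 against its own root mean square of 0.56. Differences are smaller for genes of small spread, such as BBC3 (0.12), so they do not rank the members by closeness of match. Within the family, the lowest difference was that of BCL2L11 and BBC3 (0.19), against their own root mean squares of 0.19 and 0.12. BAX and BAD differed by 0.23, against 0.42 and 0.37.

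None of the genes around the family in the apoptosis pathway passed the threshold at either dose. They were 8 lists, of relatives, downstream caspases, their inhibitors, mitochondrial partners, death receptors, transcription factors, modifying enzymes and p53 targets. Among 9 further BCL2 family genes, 0 passed limma at either dose, 4 were lower at an unadjusted p under 0.05 at each dose, and the median log2 difference was -0.26 for the lower dose and -0.47 for the higher dose. The share of all genes lower by that limit was 7.65% and 7.9%. The mitophagy receptor genes BNIP3 and BNIP3L had the lowest values at 250 µg/ml, -1.08 ± 0.72 and -0.68 ± 0.24 (limma adjusted p = 0.480 and 0.222). BNIP3 had values of 11.91, 10.68 and 9.60 at 250 µg/ml, against 11.57, 12.15 and 11.70 in vehicle arrays, so 2 of its 3 arrays lay below vehicle and 1 within it. The BH3-only genes BMF and BIK had the highest, 0.13 ± 0.25 and -0.12 ± 0.11. BCL2L10 and BCL2L14, named after their values were seen, lay below vehicle on every array at both doses. Arrays lay wholly below vehicle in 11.9% of all genes at 100 µg/ml and in 14.3% at 250 µg/ml. BCL2L10 and BCL2L14 had limma adjusted p of 0.181 and 0.307 at 100 µg/ml and 0.146 and 0.193 at 250 µg/ml. Their values, 2.57 to 3.52, lay near the lower quartile of all genes. HRK and BCL2L2, also named after their values were seen, were brighter, at percentiles 79.6 and 54.7 of all genes. HRK differed by -0.71 ± 0.24 and -0.52 ± 0.24 at 100 and 250 µg/ml (limma adjusted p = 0.267 and 0.323). Its groups did not overlap at 100 µg/ml and overlapped at 250 µg/ml. BCL2L2, with overlap at both doses, differed by -0.49 ± 0.21 and -0.47 ± 0.21 (adjusted p = 0.327 and 0.300).

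**Figure D4:**
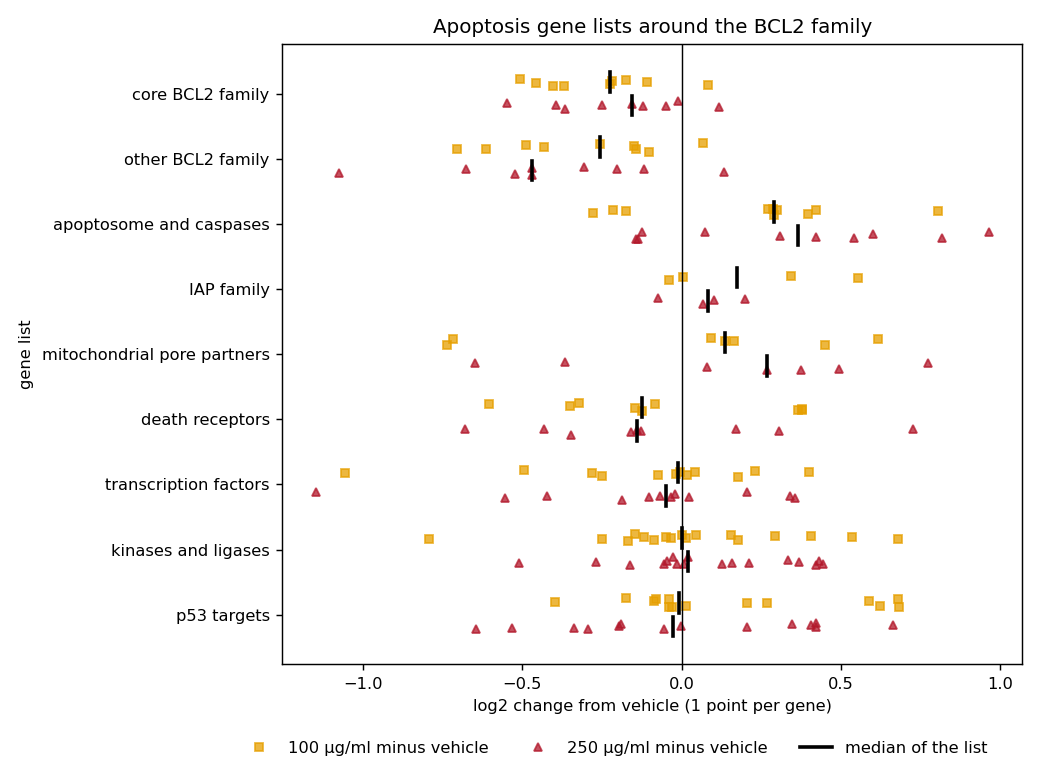
Log2 change from vehicle (horizontal axis) of single genes in 9 lists around the BCL2 family (vertical axis), at 100 µg/ml and 250 µg/ml, with the median of each list as a bar. Medians of both BCL2 family lists lie below 0 and that of the apoptosome and caspase list above 0 at both doses, and 0 genes pass the threshold.

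The list of apoptosome, released mitochondrial factors and caspases lay on the other side, with 10 measured genes, a median log2 difference of 0.29 for the lower dose and 0.37 for the higher dose, and 0 past the threshold in limma. At an unadjusted p under 0.05, 2 were higher at 100 µg/ml and 5 at 250 µg/ml, where 7% and 8.74% of all genes were higher. The 2 at 100 µg/ml, CASP2 (0.80 ± 0.24) and CASP8 (0.29 ± 0.10), were also higher by that limit at 250 µg/ml (0.60 ± 0.24 and 0.31 ± 0.10). CASP9, the initiator caspase of the apoptosome, had values of 5.01, 5.70 and 5.48 at 250 µg/ml, against 4.34, 4.75 and 4.21 in vehicle arrays. Every array at 250 µg/ml lay above every vehicle array, as in 8.61% of all genes. The difference was 0.96 ± 0.24 at 250 µg/ml (limma adjusted p = 0.101) and 0.30 ± 0.24 at 100 µg/ml (adjusted p = 0.580). AIFM1, a flavoprotein of the space between the mitochondrial membranes, differed by 0.82 ± 0.30 at 250 µg/ml (adjusted p = 0.230). CASP10 and the cytochrome c gene CYCS had the lowest values, -0.14 ± 0.09 and -0.14 ± 0.19. The mean level of CASP10 was low, at percentile 7.01 of all genes.

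Of 4 measured inhibitors of apoptosis, 0 passed, with medians of 0.17 for the lower dose and 0.08 for the higher dose. The extremes at 250 µg/ml were BIRC5 (-0.07 ± 0.15) and XIAP (0.07 ± 0.17) at the low end and BIRC6 (0.10 ± 0.17) and BIRC2 (0.20 ± 0.27) at the high end. The 7 measured mitochondrial partners had medians of 0.14 and 0.27, with 0 past the threshold in limma. Groups did not overlap in 4 of them at 100 µg/ml and in 3 at 250 µg/ml, and in 18.3% and 22.9% of all genes. The voltage-dependent anion channel genes differed in sign. VDAC2, whose protein holds BAK1 in check, had values of 3.22, 3.30 and 3.50 at 250 µg/ml, against 3.95, 4.18 and 3.84 in vehicle arrays (-0.65 ± 0.13, adjusted p = 0.066), and -0.74 ± 0.13 at 100 µg/ml (adjusted p = 0.130). VDAC3 had values of 10.08, 10.06 and 9.95 at 250 µg/ml, against 8.93, 9.29 and 9.55 in vehicle arrays (0.77 ± 0.18, adjusted p = 0.093), and a difference of 0.62 ± 0.18 at 100 µg/ml (adjusted p = 0.222). Both genes had groups that did not overlap at either dose. VDAC2 had a mean level below that of the median gene (percentile 35.5), and its dosed values lay near the lower quartile of all genes. VDAC1 lay below vehicle on every array of 100 µg/ml (-0.72 ± 0.19, adjusted p = 0.206), and its groups overlapped at 250 µg/ml (-0.37 ± 0.19, adjusted p = 0.365). PPIF, the matrix cyclophilin of the permeability transition pore, differed by 0.16 ± 0.18 and, with every array of 250 µg/ml above vehicle, by 0.49 ± 0.18 (adjusted p = 0.693 and 0.223).

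Among 9 genes of the death receptor route the medians were -0.12 for the lower dose and -0.14 for the higher dose, with 0 past the threshold in limma. Groups did not overlap in 2 of them at 100 µg/ml and in 3 at 250 µg/ml, and in 18.3% and 22.9% of all genes. TNFRSF1A, the main TNF receptor gene, had values of 7.17, 7.45 and 7.58 at 250 µg/ml, against 6.75, 6.55 and 6.72 in vehicle arrays, all higher (0.73 ± 0.14, adjusted p = 0.058). The TRAIL receptor gene TNFRSF10A had 4.25, 3.92 and 3.86 at 250 µg/ml, against 4.41, 5.11 and 4.56 in vehicle arrays, all lower (-0.68 ± 0.20, adjusted p = 0.155). The adaptor gene FADD differed by -0.43 ± 0.27 and CFLAR, which encodes an inhibitor of CASP8, by 0.31 ± 0.20.

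Transcription factors known to act on the family had medians of -0.01 and -0.05 over 12 measured genes, and 0 passed limma. DDIT3, which encodes CHOP and in other settings lowers BCL2 and raises BCL2L11, had values of 3.86, 4.42 and 5.13 at 250 µg/ml, against 4.74, 5.77 and 6.35 in vehicle arrays. The groups overlapped, and the differences were -1.15 ± 0.48 at 250 µg/ml and -1.06 ± 0.48 at 100 µg/ml (adjusted p = 0.278 and 0.354). ATF3 differed by -0.56 ± 0.26, ATF4 by -0.10 ± 0.24, STAT3 by 0.34 ± 0.19 and E2F1 by 0.36 ± 0.31 at 250 µg/ml. The 17 measured kinases, phosphatases and ubiquitin system genes had medians of 0.00 and 0.02, with 0 past the threshold. Their extremes at 250 µg/ml were PIM1 (-0.51 ± 0.35) and MAPK8 (-0.27 ± 0.19) at the low end and BTRC (0.43 ± 0.16) and YWHAB (0.44 ± 0.14) at the high end.

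BAX, PMAIP1 and BBC3 are known p53 targets, and the values of 14 other targets were set beside them. Their medians were -0.01 for the lower dose and -0.03 for the higher dose, with 0 past the threshold in limma. By an unadjusted p under 0.05, 4 were higher at 100 µg/ml and 2 at 250 µg/ml, with 0 lower at either dose. The shares of all genes by that limit were 7% and 8.74% higher, and 7.65% and 7.9% lower. MDM2, the ubiquitin ligase that limits p53, had values of 9.14, 9.20 and 8.98 at 100 µg/ml, against 8.37, 8.46 and 8.44 in vehicle arrays, and 8.83, 8.74 and 8.97 at 250 µg/ml. All dosed arrays lay above all vehicle arrays, with differences of 0.68 ± 0.10 and 0.42 ± 0.10 (limma adjusted p = 0.092 and 0.104). Arrays lay wholly above vehicle in 6.41% of all genes at 100 µg/ml and in 8.61% at 250 µg/ml. TP53I3 differed by 0.68 ± 0.23 and 0.66 ± 0.23, and the cell cycle inhibitor gene CDKN1A by 0.59 ± 0.24 and 0.42 ± 0.24 (adjusted p = 0.322 and 0.415). DDB2 and ZMAT3 had the lowest values at 250 µg/ml, -0.65 ± 0.31 and -0.53 ± 0.30. The differences of BAX, PMAIP1 and BBC3 from these genes were not tested.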

How the data were processed

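RNA of 9 ARPE-19 samples was hybridised to an Affymetrix exon array, per the labels' protocols. The deposited values are log2 summaries, 1 per probe set. RMA, Partek and build hg18 are named by the submitters' processing notes, with no versions or settings. RMA normalizes arrays together and hides changes in total RNA per cell. No detection calls were used.

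Of 17629 probe sets, 14378 name 1 gene, 2405 several and 846 none. Symbols were updated by gene number through RefSeq GRCh38.p14, which lacked 28 of them. The probe set with the highest mean was used for 169 genes with several, leaving 14207 genes. All 9 arrays were fitted with limma 3.58.1 in R 4.3.3, 1 mean per group, with Benjamini-Hochberg adjustment over all genes and a threshold of 0.05. On simulated data with 200 of 14207 genes changed, 63% of 2-fold changes were called for 100 µg/ml and 62% for 250 µg/ml, and 93% and 86% of 4-fold changes. The changed genes were drawn from all genes, with independent noise at each gene's own SD. All members but BBC3 had a within-group SD above the median gene's 0.22, so these shares need not hold for the family. The number of arrays limits the precision. Promoters are those of RefSeq.

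The members and lists were chosen with earlier results of these data known. Besides the 10 members, the text names in each list the 2 highest and 2 lowest differences at 250 µg/ml, DDIT3, ATF4, CDKN1A and MDM2, and the 2 genes most like each member. BCL2L2, BCL2L10, BCL2L14, HRK, CASP2 and CASP8 are named outside that rule, after their values were seen. So are the markers KRT8, OTX2, RPE65, BEST1, CD68 and PDGFRB. Another gene that the rule takes is not analysed here. Same-numbered arrays of the 2 doses had correlated deviations from the group means (0.443 to 0.682). This pairing was found in the data and not in the labels. Of the reported results, only the differences between same-numbered arrays used it. The reported limma fits and their standard errors did not take it into account. Between same-numbered dosed and vehicle arrays the correlations ran from -0.142 to 0.265 at 100 µg/ml and from -0.086 to 0.226 at 250 µg/ml. No pairing with vehicle was assumed in the reported fits. The replicate block tried as an alternative did set vehicle arrays with the dosed arrays of their number. Alternatives were single arrays left out, the replicate block, only 6 arrays, 2 other scalings, a filter on the dimmest 25% of genes, array weights, another variance model, averaged probe sets, and both dosed arrays numbered 3 left out.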

Additional observations from a re-analysis of the deposited data

How the results depend on the processing

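In 15 alternatives per comparison, 0 of 9 BCL2 family members passed the adjusted threshold, including the fit with the replicate block, which changed no call of a member. Members at an unadjusted p under 0.05, 0 in the reported fits, numbered 0 to 3 at each dose against vehicle and 0 in every alternative between the doses. With the block they were 1 at 100 µg/ml (BCL2) and 2 at 250 µg/ml (BAD and BCL2). The count of all genes past the threshold, 9 at 100 µg/ml, was 3 with the block, 1 with only 6 arrays, 4 after quantile normalization, 73 with array weights, 47 without both dosed arrays numbered 3, and 1 to 57 with single arrays left out. At 250 µg/ml it was 78, and 122 with the block, 1 with only 6 arrays, 153 with arrays centred, 129 after quantile normalization, 130 without dim genes, 234 with array weights, 170 with an intensity trend, 167 without the arrays numbered 3, and 4 to 296 with single arrays left out. Between the doses it was 0 throughout. All genes at an unadjusted p under 0.05 were 2081, 2364 and 262 in the 3 comparisons, and 1102 to 3736, 1449 to 2899 and 132 to 2276 over the alternatives.

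Differences changed sign, never past the threshold, as follows. With array weights PMAIP1 was at -0.036 at 100 µg/ml, -0.042 at 250 µg/ml and -0.0063 between doses, and BID at -0.0018 between doses. PMAIP1 was at -0.22 at 250 µg/ml and -0.26 between doses without the arrays numbered 3. BCL2L11 was at 0.061 at 250 µg/ml after quantile normalization, and BBC3 at -0.00955 between doses with arrays centred. With single arrays left out, BAK1 ran from -0.74 to 0.31 at 100 µg/ml, -0.57 to 0.48 at 250 µg/ml and -0.11 to 0.55 between doses, and PMAIP1 from -0.32 to 0.64, -0.28 to 0.67 and -0.30 to 0.35. At 250 µg/ml BCL2L1 ran from -0.37 to 0.11, BID from -0.51 to 0.015 and BCL2L11 from -0.16 to 0.078. Between doses BCL2 ran from -0.029 to 0.12, BCL2L1 from -0.14 to 0.33, BAX from -0.14 to 0.31, BAD from -0.24 to 0.055, BCL2L11 from -0.051 to 0.26 and BBC3 from -0.054 to 0.066. The cause was not tested. The other differences from vehicle kept their sign with single arrays left out, though not their size. At 100 µg/ml BCL2 ran from -0.60 to -0.23, BCL2L1 from -0.45 to -0.064, BAX from -0.80 to -0.34, BID from -0.63 to -0.11, BAD from -0.73 to -0.31, BCL2L11 from -0.28 to -0.022 and BBC3 from -0.23 to -0.10. At 250 µg/ml BCL2 ran from -0.57 to -0.19, BAX from -0.69 to -0.22, BAD from -0.82 to -0.40 and BBC3 from -0.21 to -0.087. Members below the vehicle mean, 8 of 9 at both doses, numbered 7 to 9 for the lower dose and 5 to 9 for the higher dose over the alternatives, with medians of -0.45 to -0.16 and -0.35 to -0.11. Members lower at 250 than at 100 µg/ml, 1 of 9, numbered 0 to 6, with medians of -0.11 to 0.13. The change of BAX minus BCL2 ran from -0.42 to 0.27 at 100 µg/ml, -0.34 to 0.34 at 250 µg/ml and -0.15 to 0.21 between doses. Averaging probe sets left every member as it was, since each has 1 of its own.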
